A study of Arabidopsis thaliana with 18 samples.

Results

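The change in transcript levels when the atchz1ab mutations were added to arp6 plants was measured in Arabidopsis thaliana seedlings. The comparison sets the 3 libraries of atchz1ab arp6 against the 3 libraries of arp6, 6 of the 18 libraries of the series, and covers the 18906 genes that passed a filter on low counts, of 33602 in the table. The libraries were taken by genotype label, while the gene lists described below were written with earlier results of these data known. Both groups carry arp6-1 in the Col-0 ecotype, and they differ by label only in atchz1ab, whose alleles the labels do not name. Plants were 14 days old and grew at 22 °C in long days, with light for 16 h and darkness for 8 h, on MS medium. The other lines used here are atchz1ab, atchz1ab hta9hta11 (with hta9-1 and hta11-2), hta9hta11 and the wild type Col-0, with 3 libraries each.

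H2A.Z is a histone variant that takes the place of H2A in nucleosomes, most often near gene starts, and plants use it at flowering, temperature, defence and DNA repair genes. The SWR1 complex exchanges H2A for H2A.Z, and ARP6 is one of its subunits. Chz1 is known from yeast as a chaperone that carries H2A.Z with H2B to SWR1, and AtChz1 proteins are its plant relatives. The comparison asks what further change in transcripts follows loss of the chaperones in plants that already lack ARP6.

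Total counts ran from 7374487 to 8108296 in the atchz1ab arp6 libraries and from 7163359 to 10088647 in the arp6 libraries. Levels are given in CPM, which scales counts by the size of each library, and they compare libraries, not genes of unlike length. Calls rest on edgeR's quasi-likelihood test, with the Benjamini-Hochberg adjusted p, taken over 18906 genes, below 0.05, and fold changes are log2 ± SE of atchz1ab arp6 over arp6. Whether replicates came from separate cultures is not stated in the labels, so p-values measure the spread between these libraries, which may be technical. Seedlings are mixtures of cells, and fewer cells of a type cannot be told apart from less RNA per cell. Of 19 root markers only 5 were measurable, of which 1 was called higher in atchz1ab arp6 and 0 lower, against 6.63% and 8.01% of all genes. Without the genes of the stretches described further on, 0 were called higher. The endodermal gene CASP1, among the markers not measurable, had 1 count in atchz1ab arp6 and 1 in arp6. How much root the samples labelled seedlings held was not tested. Of 9 pollen and anther markers 0 were measurable.

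The mutated loci were read first. ARP6 (AT3G33520) had 1 count over the atchz1ab arp6 libraries and 0 over the arp6 libraries, against 714 in Col-0. RefSeq gives a CHZ domain to 2 genes, AT4G08310 (chr4:5248806-5252327, minus strand) and AT1G44780 (chr1:16909708-16912270, plus strand), and their link to the atchz1ab mutations was read from that annotation. AT4G08310 stood at 22.1, 25.2 and 23.7 CPM in atchz1ab arp6, against 44.0, 44.3 and 44.8 CPM in arp6. All atchz1ab arp6 libraries lay below all arp6 libraries, and the gene fell by 0.91 on the log2 scale (SE 0.09, edgeR adjusted p = 1.61e-16). AT1G44780 stood at 15.8, 9.37 and 11.9 CPM in atchz1ab arp6 and at 11.6, 11.3 and 10.1 CPM in arp6, overlapping groups that were not called (0.18, edgeR adjusted p = 0.491). A count over a whole gene does not show where a transcript is interrupted. The gene beside it on the opposite strand, AT1G44770 (chr1:16907537-16909572), had 2 counts over the atchz1ab arp6 libraries against 1080 over the arp6 libraries, a ratio of 495 (95% counting interval 137 to 4090). The 135 bases that part AT1G44770 from AT1G44780 are shown because the counts of AT1G44770 were nearly lost right beside a CHZ gene. They are written on the plus strand in lower case throughout, from RefSeq TAIR10.1, chr1:16909573-16909707.
Interval between AT1G44770 and AT1G44780: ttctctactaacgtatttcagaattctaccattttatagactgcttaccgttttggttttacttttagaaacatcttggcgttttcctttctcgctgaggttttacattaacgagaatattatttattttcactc

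Between atchz1ab arp6 and arp6 2768 genes were called, 14.6% of those tested, with 1254 higher (6.63%) and 1514 lower (8.01%) in atchz1ab arp6. Other DNA differences between these lines were not tested, and counts cannot tell them apart from atchz1ab. At least 2-fold changes numbered 368 (1.95%), of which 256 were higher (1.35%) and 112 lower (0.592%). Most called changes were therefore small, with a median size of 0.32 on the log2 scale, while the median over all genes tested was 0.00. Of 24 lists of known genes, DNA repair and glucosinolate genes were called higher more often than lower, and iron deficiency and photosynthesis genes lower more often than higher, as the plot of members called per list shows.

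**Figure D1:**
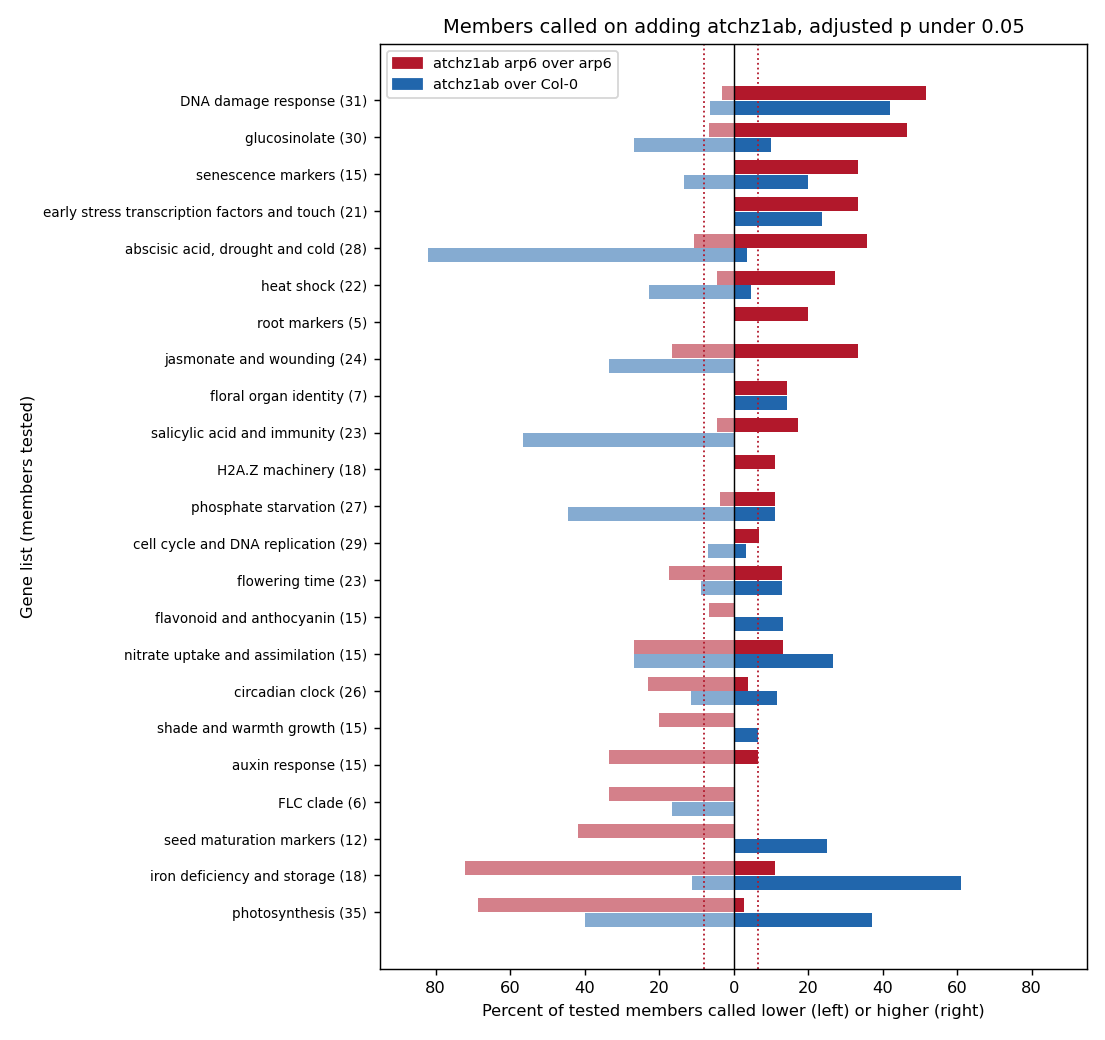
Percent of the tested members of each gene list called lower (pale bars, left) or higher (full bars, right) at adjusted p under 0.05 for atchz1ab arp6 over arp6 (red, upper bar) and atchz1ab over Col-0 (blue, lower bar). Dotted lines mark 8.01% lower and 6.63% higher, the shares over all genes of the first comparison, and the number tested stands in brackets. The iron list extends left in red, with 13 of 18 members lower, and right in blue, with 11 of 18 members higher.

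Genes of DNA repair and of the cell cycle checkpoint rose. In plants, the kinases ATM and ATR sense damaged DNA and act on the transcription factor SOG1, which switches on repair genes and inhibitors of cell division. Of 31 measured members of the DNA damage list 16 rose and 1 fell, against 6.63% and 8.01% of all genes, and the median of the list was 0.69 against 0.00 for all genes. In all 16 the atchz1ab arp6 libraries lay above the arp6 libraries, which 13% of all genes also showed. The 16 were picked by their calls on the same libraries, so this separation is no further support. The summed level of the list was 544 to 564 CPM in atchz1ab arp6 and 367 to 370 CPM in arp6.

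SOG1 binds promoters at CTT and AAG with 7 bases of any kind between them, a motif that reads the same on both strands. It stood in the 250 bases before the start of 8 of the 32 listed genes with a promoter sequence (25.0%) and of 4 of the 16 that rose (25.0%), against 9.71% of 27443 protein-coding genes and 8.01% of all genes called higher. The stretches around 3 of the 4 matches among risen genes follow, since these are members in which the motif and the rise meet. Each is written 5′ to 3′ on the strand of its gene with the match in capitals, from RefSeq TAIR10.1. A match is a description of letters and not a binding site shown in these plants.
SMR7, chr3:10231574-10231634, minus strand: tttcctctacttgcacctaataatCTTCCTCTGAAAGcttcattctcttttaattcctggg
PARP2, chr4:1049646-1049706, plus strand: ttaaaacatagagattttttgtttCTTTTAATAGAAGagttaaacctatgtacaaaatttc
NAC044, chr3:228986-229046, plus strand: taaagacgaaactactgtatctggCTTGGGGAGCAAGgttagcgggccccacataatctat

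PARP2 (AT4G02390, chr4:1049766-1054186), a poly(ADP-ribose) polymerase that marks DNA breaks, stood at 37.3, 35.3 and 39.7 CPM in atchz1ab arp6, against 6.11, 7.56 and 5.46 CPM in arp6. The groups were far apart, and PARP2 rose by 2.57 ± 0.12 (edgeR adjusted p = 1.82e-39). TSO2 (AT3G27060, chr3:9979841-9981620), a small subunit of ribonucleotide reductase that supplies DNA building blocks, stood at 144, 136 and 145 CPM in atchz1ab arp6, against 71.8, 77.2 and 66.5 CPM in arp6. Its libraries did not overlap between genotypes, and it rose by 0.98 ± 0.05 (edgeR adjusted p = 6.92e-38). GMI1 (AT5G24280, chr5:8251220-8262603), a repair protein induced by gamma irradiation, stood at 38.9, 38.8 and 33.9 CPM in atchz1ab arp6, against 11.1, 11.4 and 10.3 CPM in arp6. It was higher in every atchz1ab arp6 library and rose by 1.77 ± 0.11 (edgeR adjusted p = 1.04e-30). TRFL10 (AT5G03780), a relative of telomere repeat binding factors, stood at 11.8, 9.77 and 11.4 CPM in atchz1ab arp6, against 3.58, 2.08 and 2.85 CPM in arp6, again without overlap (1.91 ± 0.20, edgeR adjusted p = 1.53e-14).

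**Figure D2:**
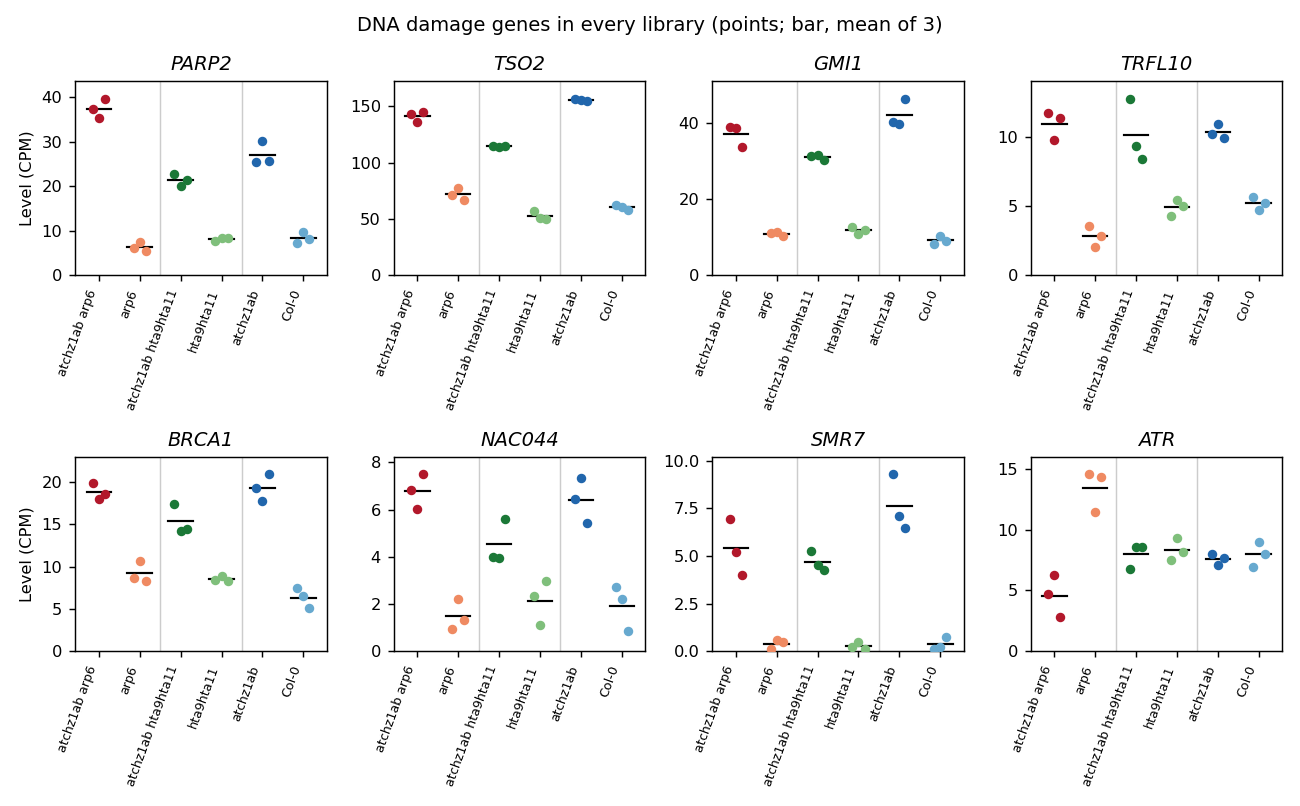
Levels in CPM, on linear axes from 0, of 8 DNA damage genes in each of the 18 libraries (points) with the mean of 3 libraries per genotype (bars), each line with atchz1ab left of its own parent line. The first 7 genes are higher with atchz1ab in all 3 pairs of lines by their means, while ATR is lower in atchz1ab arp6 than in arp6 and near level in the other pairs.

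The remaining DNA damage genes were picked after their values were seen. BRCA1 (AT4G21070), a scaffold of homologous recombination, stood at 19.9, 18.1 and 18.6 CPM in atchz1ab arp6, against 8.64, 10.7 and 8.32 CPM in arp6 (1.05 ± 0.13, edgeR adjusted p = 1.26e-10). The groups did not overlap. XRI1 (AT5G48720), named for its induction by X-rays, stood at 16.8, 16.5 and 19.4 CPM in atchz1ab arp6, against 10.6, 10.5 and 9.86 CPM in arp6 (0.76 ± 0.13, edgeR adjusted p = 5.35e-07). PARP1 (AT2G31320) rose by 0.57 and RPA1E (AT4G19130), which binds single-stranded DNA, by 1.36.

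Further listed genes act on cell division. SMR7 (AT3G27630), which inhibits cyclin-dependent kinases, stood at 6.95, 5.22 and 4.02 CPM in atchz1ab arp6, against 0.105, 0.593 and 0.475 CPM in arp6 (3.84 ± 0.40, edgeR adjusted p = 1.71e-14). NAC044 (AT3G01600), a relative of SOG1 that acts in cell cycle arrest, stood at 6.83, 6.02 and 7.49 CPM in atchz1ab arp6, against 0.949, 2.22 and 1.31 CPM in arp6 (2.24 ± 0.29, edgeR adjusted p = 1.87e-10). The partner of NAC044, NAC085 (AT5G14490), had 34 counts in atchz1ab arp6 and 0 in arp6, at least 12.4-fold higher, taking 3 counts per group as the floor. SMR5 (AT1G07500), a relative of SMR7 picked after its values were seen, lies wholly within AT1G07510 on the opposite strand, so that its counts are uncertain. It stood at 0.506 to 1.25 CPM in atchz1ab arp6 and at 0 to 0.632 CPM in arp6, overlapping groups that were not called (1.74, edgeR adjusted p = 0.0752). It was called without atchz1ab arp6 replicate 1 (2.07) or arp6 replicate 1 (3.62). GEX1 (AT5G55490), another listed gene, best known as a nuclear envelope protein of gametes, had 64 counts in atchz1ab arp6 and 0 in arp6, at least 23.3-fold higher. The mitotic cyclin gene CYCB1;1 (AT4G37490), which is also induced by DNA breaks, stood at 11.4, 8.70 and 8.88 CPM in atchz1ab arp6, against 4.11, 5.93 and 5.70 CPM in arp6 (0.90, edgeR adjusted p = 6.11e-05). Cell cycle and replication genes as a list showed 2 higher and 0 lower of 29, near the 6.63% of all genes called higher, with a median of 0.02. Leaving out any 1 of the 6 libraries left 1 member higher.

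The sensors and the regulator at the head of the pathway were not called higher. SOG1 (AT1G25580) stood at 10.1, 10.7 and 12.3 CPM in atchz1ab arp6 and at 12.3, 14.7 and 10.6 CPM in arp6 (-0.17, edgeR adjusted p = 0.514). ATM (AT3G48190), the kinase for double-strand breaks, stood at 48.2, 45.3 and 44.1 CPM in atchz1ab arp6 and at 45.4, 41.8 and 51.8 CPM in arp6 (-0.02, edgeR adjusted p = 0.912). For both genes the groups overlapped. ATR (AT5G40820, chr5:16342728-16353898), the kinase for stalled replication, was the member that fell, with 4.68, 6.29 and 2.78 CPM in atchz1ab arp6, against 14.5, 11.4 and 14.4 CPM in arp6 (-1.56 ± 0.18, edgeR adjusted p = 8.71e-13). ATR overlaps AT5G40810 over 200 bases, so that its counts are uncertain, and like SMR7 it lies in a 1 Mb stretch with many changed genes, described further on. Without the genes of such stretches 14 members rose and 0 fell.

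These genes also differed between lines with and without atchz1ab in the other backgrounds, which share no library with the comparison above. In the hta9hta11 background 13 members rose and 0 fell, against 0.793% and 0.952% of all genes. In the Col-0 background 13 rose and 2 fell, against 6.15% and 5.55% of all genes, and the list medians were 0.57 and 0.37. Members called higher in all 3 backgrounds numbered 10, a count not made over all genes. Of all 1254 genes higher in arp6, 207 were also higher in Col-0 and 84 in hta9hta11. PARP2 rose by 2.57 in arp6, by 1.39 in hta9hta11 and by 1.68 in Col-0, and its rise in arp6 exceeded that in Col-0 by 0.89 (edgeR adjusted p = 8.54e-05). XRI1 and TSO2 rose less in arp6 than in Col-0, by 0.80 and 0.38 (edgeR adjusted p = 0.000214 and 8.28e-06). For SMR7 the rise was 3.84 in arp6, 4.1 in hta9hta11 and 4.38 in Col-0, and the difference between arp6 and Col-0 was not called (-0.54, edgeR adjusted p = 0.752). ATR changed by -0.07 in hta9hta11 and -0.08 in Col-0, neither of them called, and its difference between arp6 and Col-0 was called (-1.48, edgeR adjusted p = 8.25e-07).

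**Figure D3:**
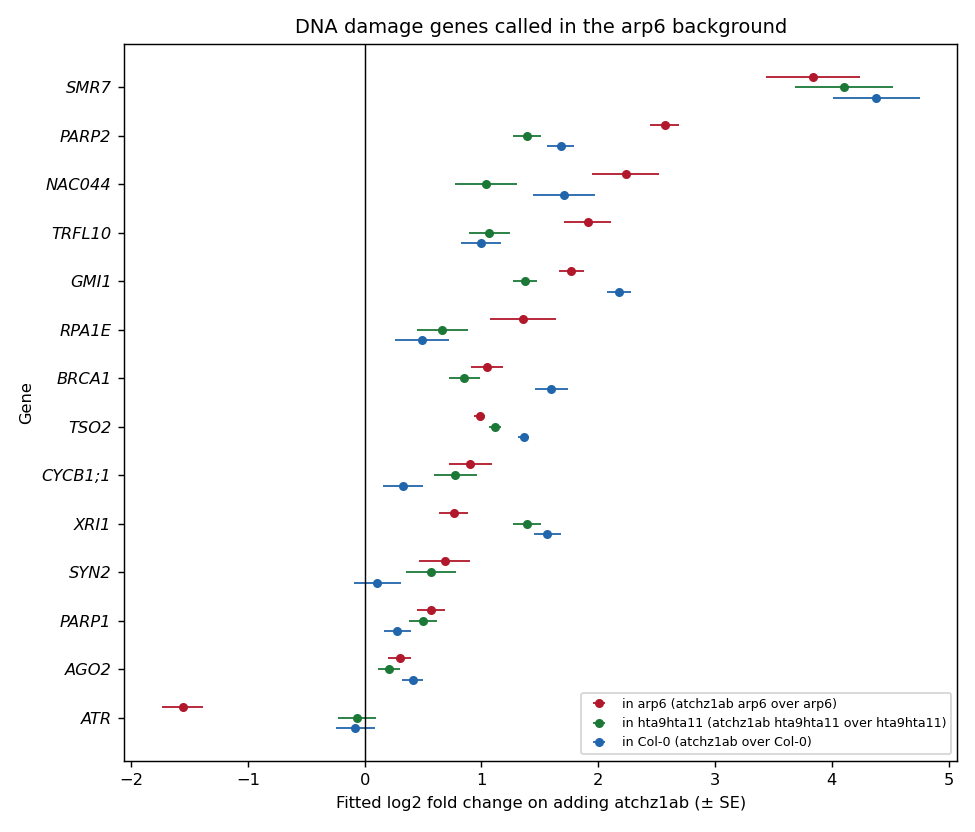
Fitted log2 fold change (± SE, 3 libraries per genotype) on adding atchz1ab for 14 of the 15 DNA damage genes called in the arp6 background that had more than 3 counts in arp6. Red points give the arp6 background, green the hta9hta11 background and blue the Col-0 background. PARP2 lies farther right in arp6 (2.57) than in Col-0 (1.68), XRI1 lies farther left (0.76 against 1.57), and ATR lies at -1.56 in arp6, -0.07 in hta9hta11 and -0.08 in Col-0. The calls of SYN2 and AGO2 were lost when single libraries were left out, and that of AGO2 also with DESeq2 and at an assumed coefficient of variation of 0.1.

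Iron deficiency genes fell. In Arabidopsis, BHLH38, BHLH39, BHLH100 and BHLH101 are transcription factors that switch on iron uptake, IMA peptides promote that response, BTS is a ubiquitin ligase that restrains it, and ferritins store iron. Of 18 measured members 13 fell and 2 rose, against 8.01% and 6.63% of all genes, with a median of -0.39. BHLH100 (AT2G41240, chr2:17198037-17199454) stood at 24.8, 25.3 and 24 CPM in atchz1ab arp6, against 53.8, 47.7 and 51.9 CPM in arp6. The lines did not overlap, and BHLH100 fell by 1.05 (SE 0.09, edgeR adjusted p = 2.1e-19). BHLH38 (AT3G56970) stood at 25.9, 25.6 and 26.9 CPM in atchz1ab arp6, against 58.0, 49.7 and 51.1 CPM in arp6 (-1.02 ± 0.09, edgeR adjusted p = 6.58e-18). Its 2 relatives fell as well, BHLH39 (AT3G56980) by 0.69 and BHLH101 (AT5G04150) by 0.91, both picked after their values were seen.

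A signal peptide gene and the ligase gene fell as well. IMA2 (AT1G47395) stood at 48.9, 44.9 and 45.5 CPM in atchz1ab arp6, against 78.2, 71.5 and 69.7 CPM in arp6 (-0.66 ± 0.07, edgeR adjusted p = 7.41e-13). BTS (AT3G18290) stood at 380, 389 and 389 CPM in atchz1ab arp6, against 497, 492 and 502 CPM in arp6 (-0.37 ± 0.03, edgeR adjusted p = 2.22e-22). Both genes were lower in every atchz1ab arp6 library. The 2 members that rose were ferritins, of which 1 stayed called without arp6 replicate 1. FER1 (AT5G01600), picked after its values were seen, stood at 33.5, 37.1 and 29.7 CPM in atchz1ab arp6, against 20.8, 24.3 and 21.0 CPM in arp6 (0.62 ± 0.08, edgeR adjusted p = 2e-10), although it overlaps another gene over 1334 bases.

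The direction was the opposite one in the Col-0 background. There 11 iron genes rose and 2 fell on adding atchz1ab, against 6.15% and 5.55% of all genes, with a median of 0.27. In hta9hta11 0 rose and 1 fell, against 0.793% and 0.952% of all genes. All 11 that rose in Col-0 were among the 13 that fell in arp6. Over all genes, 265 of the 1162 that rose in Col-0 fell in arp6. Both ferritins fell in Col-0. IMA1 (AT1G47400) changed by -0.69 in arp6 and 0.77 in Col-0, and FER1 by 0.62 in arp6 and -0.87 in Col-0. The difference between the arp6 and Col-0 effects was called for 14 of the 18 genes, 12 lower and 2 higher, against 7.35% and 6.38% of all genes. With an assumed coefficient of variation of 0.1, a wider spread than measured, 8 iron genes fell and 1 rose in arp6.

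**Figure D4:**
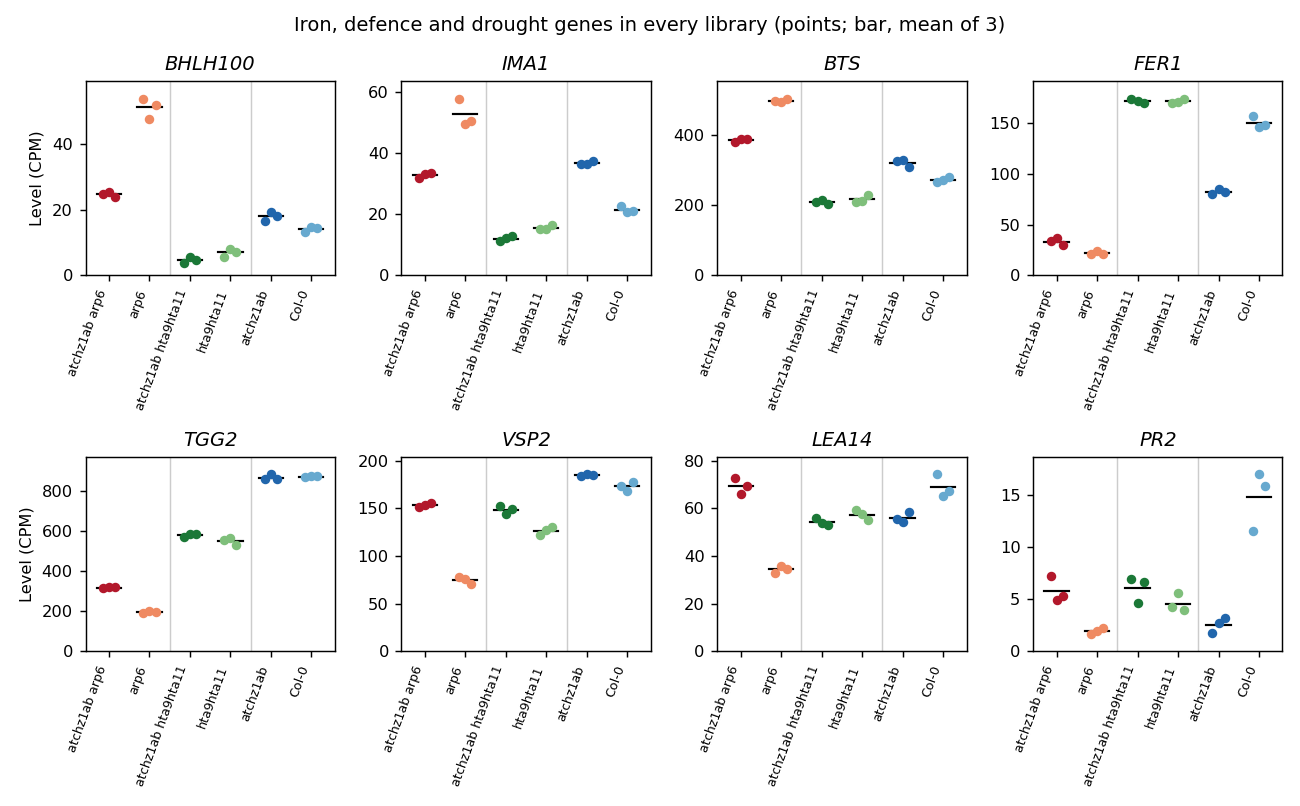
Levels in CPM, on linear axes from 0, of 4 iron genes (upper row) and 4 genes of glucosinolate breakdown, jasmonate, drought and salicylic acid (lower row) in each of the 18 libraries (points), with the mean of 3 libraries per genotype (bars). In atchz1ab arp6 BHLH100, IMA1 and BTS are lower than in arp6, while FER1, TGG2, VSP2, LEA14 and PR2 are higher.

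Glucosinolate genes rose in part and by small amounts. Glucosinolates are sulphur-containing defence compounds of the cabbage family, made in part from methionine and activated by myrosinases. Of 30 measured members 14 rose and 2 fell, against 6.63% and 8.01% of all genes, with a median of 0.17. In all 14 the libraries did not overlap, as in 13% of all genes in that direction, but the 14 were picked by their calls on these libraries. The myrosinase gene TGG2 (AT5G25980, chr5:9072708-9075777) stood at 314, 318 and 319 CPM in atchz1ab arp6, against 191, 199 and 194 CPM in arp6. All its atchz1ab arp6 libraries lay above the arp6 libraries (0.71 ± 0.03, edgeR adjusted p = 4.48e-47). The synthesis gene CYP79F1 (AT1G16410), which converts chain-elongated methionine, stood at 284, 273 and 291 CPM in atchz1ab arp6, against 214, 209 and 207 CPM in arp6 (0.43 ± 0.03, edgeR adjusted p = 2.03e-22). CYP83A1 (AT4G13770), of the next step, stood at 289, 299 and 299 CPM in atchz1ab arp6, against 217, 240 and 215 CPM in arp6 (0.40 ± 0.03, edgeR adjusted p = 2.76e-21). In the Col-0 background 3 glucosinolate genes rose and 8 fell, against 6.15% and 5.55% of all genes. The difference between backgrounds was called for 14 genes, against 13.7% of all genes, and 13 of them were higher in arp6. With an assumed coefficient of variation of 0.1, 5 rose and 1 fell.

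Jasmonate genes moved both ways. Jasmonate is the hormone of wounding and feeding insects, and 8 of 24 measured members rose while 4 fell (median 0.19), against 6.63% and 8.01% of all genes. The lower members numbered 2 with DESeq2, in a fit to the 6 libraries alone, without the genes of the stretches described further on, without atchz1ab arp6 replicate 1 and without arp6 replicate 3. VSP2 (AT5G24770), a storage protein and standard jasmonate marker, stood at 152, 154 and 156 CPM in atchz1ab arp6, against 77.6, 75.6 and 70.6 CPM in arp6. It did not overlap between lines and rose by 1.04 ± 0.04 (edgeR adjusted p = 4.98e-44). CORI3 (AT4G23600), another gene induced by jasmonate, stood at 98.9, 100 and 101 CPM in atchz1ab arp6, against 56.0, 58.7 and 55.2 CPM in arp6 (0.82 ± 0.05, edgeR adjusted p = 4.12e-27). AOS (AT5G42650), a synthesis enzyme whose gene lies in one of the stretches described further on, was lower, at 126, 120 and 124 CPM in atchz1ab arp6 against 147, 152 and 146 CPM in arp6 (-0.26, edgeR adjusted p = 3.92e-07).

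In the list of abscisic acid, drought and cold genes 10 of 28 rose and 3 fell, against 6.63% and 8.01% of all genes, with a median of 0.14. LEA14 (AT1G01470, chr1:171525-172948), a protective protein of dry cells, stood at 72.7, 66.0 and 69.2 CPM in atchz1ab arp6, against 32.8, 35.9 and 34.3 CPM in arp6. Its lines were apart in every library (1.02 ± 0.07, edgeR adjusted p = 5.3e-27). ERD14 (AT1G76180), a dehydrin, stood at 287, 283 and 290 CPM in atchz1ab arp6, against 220, 209 and 213 CPM in arp6 (0.42 ± 0.03, edgeR adjusted p = 3.47e-23). In the Col-0 background 1 of these genes rose and 23 fell on adding atchz1ab, against 6.15% and 5.55% of all genes, with a median of -0.40. Of the 10 that rose in arp6, 9 fell in Col-0, against 177 of all 1254 genes that rose in arp6. RD29A (AT5G52310), a classic drought and cold marker picked after its values were seen, changed by 0.36 in arp6 and -0.73 in Col-0. The difference between the arp6 and Col-0 effects was called for 23 of the 28 genes, all of them higher in arp6, against 6.38% of all genes.

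Salicylic acid genes, which answer to infecting microbes, numbered 4 higher and 1 lower of 23, against 6.63% and 8.01% of all genes. PR2 (AT3G57260), a glucanase, stood at 7.21, 4.95 and 5.27 CPM in atchz1ab arp6, against 1.69, 1.93 and 2.26 CPM in arp6 (1.58 ± 0.26, edgeR adjusted p = 4.36e-07). PR1 (AT2G14610), the usual marker of this hormone, stood at 3.67, 2.95 and 3.89 CPM in atchz1ab arp6, against 1.26, 0.889 and 0.95 CPM in arp6 (1.72 ± 0.36, edgeR adjusted p = 0.000125). Both were low but did not overlap between lines. In the Col-0 background they changed by -2.54 and -3.69, where 13 members fell and 0 rose against 5.55% and 6.15% of all genes, and the difference between backgrounds was 4.12 for PR2 and 5.41 for PR1 (edgeR adjusted p = 1.52e-21 and 4.01e-16). In a fit to the 6 libraries alone 2 members were higher, and with a filter of 50 counts in 3 libraries 1 was.

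Photosynthesis genes fell by small amounts, 24 of 35 with 1 higher, against 8.01% and 6.63% of all genes, and a median of -0.09. The higher members numbered 2 without atchz1ab arp6 replicate 3. RCA (AT2G39730), the activase of Rubisco, stood at 5256, 5337 and 5099 CPM in atchz1ab arp6, against 6550, 6557 and 6564 CPM in arp6 (-0.33 ± 0.01, edgeR adjusted p = 4.07e-48). The carbonic anhydrase gene CA1 (AT3G01500), which overlaps another gene over 343 bases, stood at 3760, 3653 and 3658 CPM in atchz1ab arp6, against 4532, 4540 and 4530 CPM in arp6 (-0.30 ± 0.01, edgeR adjusted p = 2.15e-43). Both genes were lower in every atchz1ab arp6 library and changed the other way in Col-0, by 0.12 and 0.37. The list as a whole did not reverse. In Col-0 13 members rose and 14 fell, against 6.15% and 5.55% of all genes. Of the 24 that fell in arp6, 8 rose and 13 fell in Col-0. Of all 1514 genes that fell in arp6, 265 rose and 191 fell in Col-0. LHCB2.2 (AT2G05070), a light-harvesting protein with near-identical copies among which reads could be split, changed by -0.38 ± 0.02 (edgeR adjusted p = 1.28e-28). With an assumed coefficient of variation of 0.1, 1 member fell and 0 rose.

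Organelle transcripts, which carry no long poly(A) tail and enter such libraries in part, were also lower. They took 1.77%, 1.74% and 1.73% of counts in atchz1ab arp6, against 2.13%, 2.16% and 2.21% in arp6 (2-sided exact permutation test, p = 0.1, n = 3, which is the smallest p of such a design). Of 120 organelle genes 56 fell and 1 rose, against 8.01% and 6.63% of all genes. The 18S ribosomal RNA gene AT3G41768 stood at 16263, 16899 and 16474 CPM in atchz1ab arp6, against 19933, 20197 and 20822 CPM in arp6. The organelle share was lower with atchz1ab in the other backgrounds too. It was 1.72% to 1.73% in atchz1ab hta9hta11 against 2.08% to 2.12% in hta9hta11, and 1.59% to 1.60% in atchz1ab against 2.12% to 2.14% in Col-0. The part of RNA quality or library preparation in the fall of photosynthesis genes was not tested. Without organelle and 18S genes 2723 genes were called.

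Of 15 nitrate assimilation genes 2 rose and 4 fell (median 0.01), and of 26 clock genes 1 rose and 6 fell (median -0.12), against 6.63% and 8.01% of all genes. Leaving out single libraries left 0 to 2 nitrate and 0 to 2 clock members higher. The nitrate reductase genes NIA1 (AT1G77760) and NIA2 (AT1G37130) changed by -0.45 ± 0.03 and -0.28 ± 0.02 (edgeR adjusted p = 4.39e-33 and 3.89e-27). NIA1 stood at 359, 370 and 378 CPM in atchz1ab arp6, against 494, 502 and 514 CPM in arp6. The clock gene PRR7 (AT5G02810), a repressor of the morning genes, stood at 238, 245 and 228 CPM in atchz1ab arp6, against 293, 290 and 294 CPM in arp6 (-0.30 ± 0.03, edgeR adjusted p = 8.08e-14). Neither PRR7 nor NIA1 overlapped between the lines.

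Among flowering genes 3 rose and 4 fell of 23, against 6.63% and 8.01% of all genes, and 2 fell without atchz1ab arp6 replicate 3 or without the genes of the stretches described further on. Of FLC and its 5 relatives, a list of their own, 0 rose and 2 fell, and 1 fell without atchz1ab arp6 replicate 1, without arp6 replicate 1 or in a fit to the 6 libraries alone. FLM (AT1G77080), a flowering repressor related to FLC, stood at 19.9, 17.5 and 16.4 CPM in atchz1ab arp6, against 24.7, 27.4 and 28.4 CPM in arp6 (-0.57 ± 0.10, edgeR adjusted p = 2e-06). FUL (AT5G60910), which promotes flowering, stood at 19.7, 15.4 and 13.6 CPM in atchz1ab arp6, against 10.8, 11 and 9.62 CPM in arp6 (0.64 ± 0.15, edgeR adjusted p = 0.000472). For both genes the groups did not overlap. FLC (AT5G10140), the main flowering repressor, picked after its values were seen, had 10 counts in atchz1ab arp6 and 29 in arp6 and was not called (-1.38, edgeR adjusted p = 0.0872). It was called without atchz1ab arp6 replicate 3 (-2.12) or arp6 replicate 3 (-1.65), and it overlaps another gene. H2A.Z and SWR1 or INO80 genes were counted 2 higher and 0 lower of 18, against 6.63% and 8.01% of all genes. The count was 1 with DESeq2, with the filter of 50 counts, in a fit to the 6 libraries alone and without atchz1ab arp6 replicate 1 or 3, 0 without arp6 replicate 1 and 3 without arp6 replicate 2. HTA8 (AT2G38810), which encodes H2A.Z, stood at 6.58, 6.43 and 9.44 CPM in atchz1ab arp6, against 4.11, 4.89 and 4.87 CPM in arp6 (0.70, edgeR adjusted p = 0.00852). Its call was lost without atchz1ab arp6 replicate 3 (0.50) or arp6 replicate 1 (0.61).

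Stress and age markers were read as further signs of the state of the seedlings. Of 21 early stress and touch genes 7 rose and 0 fell, against 6.63% and 8.01% of all genes, and 4 rose without arp6 replicate 3. Among them was the zinc finger gene ZAT10 (AT1G27730), with 3.03, 2.95 and 1.94 CPM in atchz1ab arp6 against 0.949, 1.19 and 0.713 CPM in arp6 (1.49, edgeR adjusted p = 0.000511). Heat shock genes counted 6 higher and 1 lower of 22, and 0 lower without atchz1ab arp6 replicate 3, without arp6 replicate 1, with DESeq2 or in a fit to the 6 libraries alone. HSP90.1 (AT5G52640), a protein chaperone, stood at 32.8 ± 1.32 CPM in atchz1ab arp6 against 23.9 ± 1.11 CPM in arp6 (SD, n = 3 each; 0.46, edgeR adjusted p = 4.08e-05). Senescence markers counted 5 higher and 0 lower of 15. Seed maturation genes counted 0 higher and 5 lower of 12, against 6.63% and 8.01% of all genes, and 3 lower without atchz1ab arp6 replicate 2 or in a fit to the 6 libraries alone. Among these was the storage protein gene CRA1 (AT5G44120) at 2.02, 3.08 and 2.78 CPM in atchz1ab arp6 against 4.95, 6.37 and 5.70 CPM in arp6 (-1.10, edgeR adjusted p = 3.47e-05). The seed list went the other way in hta9hta11, with 7 higher and 0 lower against 0.793% and 0.952% of all genes. In Col-0 3 seed genes rose and 0 fell, against 6.15% and 5.55%. All 3 were among those that fell in arp6, as were 265 of all 1162 genes that rose in Col-0. ZAT10, HSP90.1 and CRA1 did not overlap between the lines. At the assumed coefficient of variation of 0.1, members called higher numbered 4 for jasmonate, 6 for abscisic acid, 4 for early stress and 2 for heat shock, and those called lower 2 for nitrate and 1 for the clock.

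The calls over all genes were then set side by side with those in the other backgrounds. In the Col-0 background 2211 genes were called (11.7%), and 840 were called in both, 30.3% of the calls in arp6 and 38% of those in Col-0. Of these 398 moved the same way and 442 opposite ways, and the log2 fold changes had a Pearson r of 0.057 over 18906 genes and 0.148 over the 12127 genes at 10 CPM or more, given as a description since genes share libraries and depth. In hta9hta11 330 genes were called (1.75%), and 203 were called in both, 7.33% of the calls in arp6 and 61.5% of those in hta9hta11, 169 the same way and 34 opposite. The Pearson r was 0.18 over all genes tested and 0.235 at 10 CPM or more. The effect in arp6 differed from that in Col-0 for 2597 genes (13.7%), 484 of them at least 2-fold (2.56%), and from that in hta9hta11 for 1213 (6.42%), 248 of them at least 2-fold (1.31%).

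Genes of 2 cell wall proteins were among those that changed in opposite directions. EXT4 (AT1G76930), an extensin, stood at 71.4, 64.9 and 62.9 CPM in atchz1ab arp6, against 31.6, 32.9 and 35.5 CPM in arp6 (1.00 ± 0.07, edgeR adjusted p = 2.95e-26). GRP3S (AT2G05380), a glycine-rich protein, stood at 126, 112 and 117 CPM in atchz1ab arp6, against 68.9, 61.5 and 70.2 CPM in arp6 (0.82 ± 0.05, edgeR adjusted p = 1.57e-33). In Col-0 EXT4 changed by -0.66 and GRP3S by -0.83, so that the effects in the 2 backgrounds differed by 1.66 and 1.64 (edgeR adjusted p = 3.77e-36 and 9.76e-57). BGLU18 (AT1G52400), a glucosidase that releases abscisic acid, stood at 956, 956 and 966 CPM in atchz1ab arp6, against 1559, 1572 and 1550 CPM in arp6 (-0.70 ± 0.02, edgeR adjusted p = 2.84e-59). In hta9hta11 it changed by 0.39.

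Part of the large changes lay close together in the genome. Windows of 1 Mb in which at least 5% of 30 or more tested genes changed at least 2-fold numbered 12 of 121. They lie on chromosomes 1, 3, 4 and 5, hold 8.93% of the tested genes placed on a chromosome and carry 35.3% of the changes of at least 2-fold, 129 of 365. The other changes of that size, the greater number, lay outside them. Inside them 26.5% of genes were called and 7.70% changed at least 2-fold, and outside them 13.3% and 1.38%. These windows were chosen on the same fold changes, so the contrast is a description. AT1G23130 (chr1:8200321-8201246), in one of them, stood at 272, 270 and 277 CPM in atchz1ab arp6, against 5.90, 5.48 and 6.06 CPM in arp6 (5.54 ± 0.06, edgeR adjusted p = 6.31e-110), and had 10999 counts in Col-0. IGMT4 (AT1G21130), an indole glucosinolate methyltransferase in another, stood at 182, 182 and 175 CPM in atchz1ab arp6, against 39.3, 48.3 and 48.9 CPM in arp6 (1.99 ± 0.05, edgeR adjusted p = 5.72e-69). FRI (AT4G00650), a flowering regulator in a further window, stood at 7.08, 7.36 and 5.83 CPM in atchz1ab arp6, against 0.527, 1.33 and 1.43 CPM in arp6 (2.66, edgeR adjusted p = 5.74e-15).

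Several genes in these windows were present in one line and near 0 in the other. Genes with at most 2 counts in arp6 but at least 30 in both atchz1ab arp6 and Col-0 numbered 19, of which 14 lay in the windows and 13 had 0 counts in arp6. AT5G28919 had 884 counts in atchz1ab arp6 and 0 in arp6, at least 322-fold higher, although it shares 1739 bases with another gene. All 19 genes also had 38 or more counts in atchz1ab hta9hta11, 34 or more in hta9hta11 and 40 or more in atchz1ab, so that arp6 stood alone among the 6 lines. In the other direction 6 genes had at most 2 counts in atchz1ab arp6 and Col-0 and at least 30 in arp6, such as AT1G22120, with 0 counts in atchz1ab arp6 against 163 in arp6, at least 49.8-fold lower. A further 57 genes were near 0 in both lines and present in Col-0. Counts do not tell a silent gene from one whose sequence is absent or differs in a line, and DNA differences between the lines were not tested. Without the genes of the 12 windows 2242 genes were called and 234 changed at least 2-fold.

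**Figure D5:**
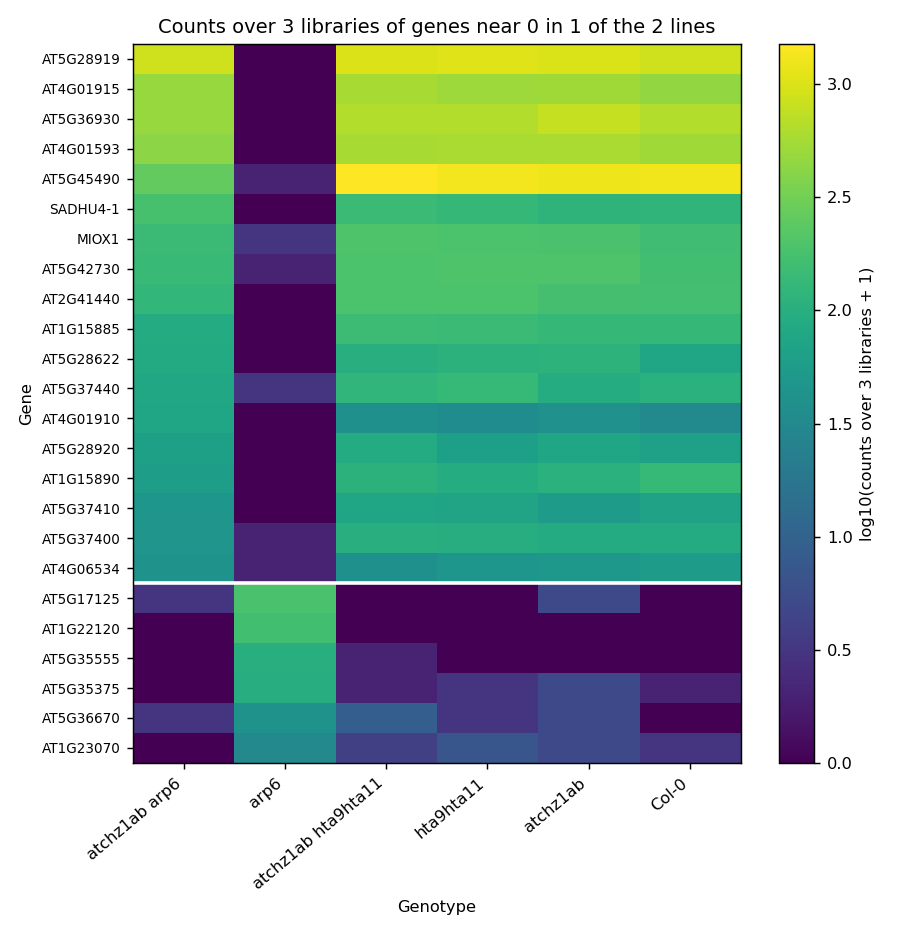
Counts over 3 libraries, as log10(counts + 1) by colour, of 18 of the 19 genes near 0 in arp6 and present in atchz1ab arp6 and Col-0 (above the white line) and of the 6 genes present in arp6 and near 0 in atchz1ab arp6 and Col-0 (below it), in the 6 lines. The arp6 column is dark above the line and bright below it, and the other 5 columns are the reverse.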

How the data were processed

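RNA of samples labelled seedlings was counted per gene in 18 libraries, 3 for each of 6 genotypes. Libraries came from a stranded mRNA kit, per the labels' protocols. Per the submitters' processing notes the authors used cutadapt, HISAT2, SAMtools and featureCounts with the build TAIR10, and strand use in counting is not stated in any source used here. The authors deposited raw read counts per gene, whole numbers with no normalization.

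The main test was edgeR's quasi-likelihood test (edgeR 4.0.16, R 4.3.3) with TMM scaling, filterByExpr and Benjamini-Hochberg adjustment, over all 18 libraries in 1 fit with genotype as the factor and 12 residual degrees of freedom. Interactions asked whether the effect of atchz1ab differed between backgrounds. The common coefficient of variation was 3.08%. Replicate pairs differed by more than sampling noise (chi-square per degree of freedom 1.43 to 1.66). DESeq2 1.42.0, RLE scaling, other filters, a replicate block, an assumed coefficient of variation of 0.1 and each library left out were alternatives. The code was tested on simulated data.

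Genes with 0 counts in a group are given as a bound against 3 counts, and those with 1 to 3 counts as a ratio with its 95% counting interval. Both cover counting error only. Coordinates and sequences are RefSeq's (TAIR10.1, the same chromosome sequences as TAIR10).

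Members and the 24 lists (541 genes, 460 tested) were chosen with earlier results of these data known. Named genes were the mutated genes, the 12 highest and 12 lowest non-overlapping changes at 1 CPM or more, the 5 largest rises and falls in CPM, up to 4 called members per list, 12 leading genes of the interactions and 6 called in opposite directions in arp6 and Col-0. A few genes are not reported here by name but stay in the counts.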

Additional observations from a re-analysis of the deposited data

Results flagged for a closer look

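For several named genes the change between lines with and without atchz1ab differed between the arp6 and Col-0 backgrounds. The test was an interaction term in edgeR's quasi-likelihood fit over 18906 genes. Values are the log2 fold change in arp6 minus that in Col-0. The arp6 effect was the higher one for AT5G28919 (11.31, fitted against 0 counts in arp6 and thus no bound), AT1G23130 (5.54), IGMT4 (1.93), EXT4 (1.66), GRP3S (1.64), TRFL10 (0.91, adjusted p = 0.0123) and PARP2 (0.89). It was the lower one for ATR (-1.48), XRI1 (-0.80), AT2G10940 (-0.80), BRCA1 (-0.55, adjusted p = 0.0462) and TSO2 (-0.38). In photosynthesis and carbon metabolism it was lower for GLDP1 (-0.70), a photorespiratory enzyme, CA1 (-0.66), SCO1 (-0.56), a translation factor of plastids, FBA5 (-0.50), an aldolase, CA2 (-0.48) and RCA (-0.45), and it was lower for BGLU18 (-0.67). Against the hta9hta11 background the difference was 11.57 for AT5G28919, 5.68 for AT1G23130, 2.04 for IGMT4 and -1.09 for BGLU18.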

How the results depend on the processing

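With RLE scaling, DESeq2, no filter, a fit to only the groups compared or without organelle and 18S genes, between 2107 and 2766 genes were called, within 1.5 times the 2768 reported. Under the alternative runs 0 of the results reversed, where a gene counted as reversed only if called in either run. A filter of 50 counts in 3 libraries left 182 changes of at least 2-fold, and 276 and 161 such differences from the Col-0 and hta9hta11 effects, against 368, 484 and 248. An assumed coefficient of variation of 0.1 left 839 calls, 510 higher and 329 lower, of which 826 were among the 2768, and 693 and 326 differences from the Col-0 and hta9hta11 effects. The share of calls that were higher was then 60.8%, against 45.3%. Without the genes of the 12 windows, an alternative added after seeing the data as was that without organelle genes, 234 changes and 155 differences from hta9hta11 of at least 2-fold stayed. Leaving out each library in turn gave 2255 to 2402 calls, 994 to 1087 higher, 1216 to 1315 lower and 349 to 359 of at least 2-fold. It gave 2272 to 2401 differences from Col-0 (452 to 469 of at least 2-fold) and 1048 to 1140 from hta9hta11 (229 to 256). The cause of these shifts was not tested. The filter of 50 counts and the removal of the windows left fewer genes, and each library left out left fewer libraries. The assumed coefficient of variation kept the same 18906 genes and all 18 libraries, with a wider spread than measured.

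With the replicate number as a block 2728 genes were called. Same-numbered libraries did not deviate together over all genes tested (r = 0.0055, -0.0038 and -0.0129). Such a correlation cannot exclude a pairing that touches few genes. Among 150 named genes, 2067 values over the alternatives kept their call or their lack of one, 103 lost the call and 4 gained it. Direction was checked only for genes called in either run. Depth limits genes near 1 CPM, such as FLC and SMR5, whose calls turned on single libraries. SMR5 was not called (1.74, adjusted p = 0.0752) but was without atchz1ab arp6 replicate 1 (2.07) or arp6 replicate 1 (3.62).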

Other observations

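A further 5 genes were near 0 in arp6 and in Col-0 and present in atchz1ab arp6. These are GEX1 with 64 counts, AT5G07610 with 90, AT1G20750 with 33, AT5G53230 with 43 and HDA7, a histone deacetylase gene, with 43 counts over 3 atchz1ab arp6 libraries. GEX1, AT5G07610 and AT1G20750 also appeared with atchz1ab in hta9hta11 (33, 69 and 39 counts) and in Col-0 (54, 83 and 39 counts). Of 30 phosphate starvation promoters 10 (33.3%) held the letters GNATATNC in the 250 bases before the start, the motif of the regulator PHR1, against 5.46% of all protein-coding promoters. On adding atchz1ab to arp6, 3 of 27 measured phosphate genes rose and 1 fell, against 6.63% and 8.01% of all genes, and without arp6 replicate 3 the count higher was 1. In Col-0 3 rose and 12 fell, against 6.15% and 5.55% of all genes.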
